A study of Homo sapiens with 6 samples.

Results

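The 10 genes described here are SAT1, SAT2, ODC1, OAZ1, OAZ2, AMD1, SMS, SRM, SMOX and AZIN1. SAT2 is included as a relative of SAT1, and the other genes make, convert and break down polyamines or control those steps. The 10 genes were chosen by role and because values of these libraries had shown a fall of a SAT1 transcript. The values that follow therefore describe the members. A call of a member by the fit of all rows is a description and no independent evidence. RNA was sequenced from A549/DDP cells, a cisplatin-resistant line derived from A549 whose medium was kept at 1 µg/mL cisplatin (DDP), and from A549 cells, the established lung adenocarcinoma line it came from, grown without the drug. Each line had 3 libraries at passages 6 to 8, depleted of rRNA and made with a directional kit, and the sample labels spell the resistant line A549/DPP. Both kinds of cells are single lines, the labels do not say that libraries came from separate cultures, and an effect of the drug in the medium and the resistant state cannot be told apart.

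Polyamines (putrescine, spermidine and spermine) are small positively charged molecules that bind nucleic acids and that growing cells need. ODC1, ornithine decarboxylase, makes putrescine. AMD1 makes the decarboxylated S-adenosylmethionine whose aminopropyl group SRM adds to putrescine, giving spermidine, and SMS adds to spermidine, giving spermine. SAT1 acetylates spermidine and spermine for export or breakdown, and SMOX oxidises spermine back to spermidine. OAZ1 and OAZ2 are antizymes that carry ODC1 to the proteasome, and AZIN1 is a catalytically inactive relative of ODC1 that binds antizymes. SAT1 is known for an extra exon with an early stop codon, which sends the RNA to nonsense-mediated decay and is skipped more often when polyamines are plentiful.

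Levels are in FPKM, the fragments of a transcript scaled by its length and by all mapped fragments of the library, one value per transcript as deposited. Each row gives a gene ID and a span without a transcript name, and a row was named where its gene ID and span matched a transcript of GENCODE 44 on GRCh38. The 10 genes had 42 of 81818 rows and 10 of 30061 gene IDs. Of these rows, 5 were of SAT1, 10 of SAT2, 1 of ODC1, 7 of OAZ1, 5 of OAZ2, 2 of AMD1, 1 of SMS, 1 of SRM, 5 of SMOX and 5 of AZIN1. A transcript name was found for 38 rows, of which 22 are annotated as retained introns, 15 as transcripts whose coding sequence is not defined and 1 as subject to nonsense-mediated decay. The other 4 rows had no matching span. Rows of the usual coding transcripts of these genes were not analysed here, so a sum over the rows of a gene is a sum of mostly non-coding transcripts and not the level of its mRNA. Among all rows, 71270 matched a transcript, and 347 had a span of coding transcripts alone. Ranks and shares over all rows are thus among mostly non-coding rows.

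The FPKM of a library summed to 65142 to 68665 in A549/DDP cells and to 58042 to 62589 in A549 cells, and the number of reads is not known. Gene sums of the epithelial markers KRT8, KRT18, KRT19, EPCAM and CDH1 together were 1798 to 2391 FPKM in A549/DDP cells and 477 to 678 FPKM in A549 cells, with KRT19 below 0.5 FPKM in every library. Of the alveolar genes, NAPSA and SFTPB together were at 0.0798 to 0.561 FPKM in A549/DDP cells and at 0 to 0.153 FPKM in A549 cells, with SFTPB below 0.5 FPKM in every library. Markers of fibroblasts summed to at most 0.851 FPKM, those of blood cells to at most 0.112 FPKM, and PECAM1 and VWF of endothelium were listed at 0. The markers NKX2-1, CD14 and CDH5 had no row. Like the sums of the members, these marker sums hold mostly non-coding transcripts and are not levels of marker mRNA. The first principal component of all tested rows separated the lines (39.8% of the variance). The second (18.2%) set A549 replicate 2 apart from the other libraries. In bulk RNA, fewer cells of a type and less RNA per cell cannot be told apart.

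The sequences in this paragraph show what separates the SAT1 transcripts. SAT1-208 (gene ENSG00000130066, chrX:23783197-23786210, plus strand, GRCh38) has 7 exons and 1135 exon bases, of which 90.3% lie in exons of the coding transcripts. It differs from the coding transcript SAT1-204 inside the coding sequence by its exon 4 of 110 bases (chrX:23784294-23784403). A TAG stop codon in the frame of the protein begins 11 bases into that exon, so the coding sequence has 71 codons, against 171 in SAT1-204. The first line runs from the end of exon 3 into exon 4 of SAT1-208, with the stop codon in capitals. The second is the same junction in SAT1-204, with the bases beside the junction in capitals, and the third is the intron end before exon 4 with its acceptor AG in capitals.
SAT1-208 exon 3 to exon 4: actggactccggaaggttacagtctcTAG
SAT1-204 exon 3 to exon 4: actggactccggaAGGAcacagcattgttg
SAT1 intron to exon 4 of SAT1-208: tgtcccaatcttcAGgttacagtctct

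The remaining SAT1 rows with a name are annotated as retained introns. SAT1-207 (chrX:23783508-23784029) reads past the donor of exon 3, the site that SAT1-208 uses, and 31.5% of its bases lie in coding exons. SAT1-206 (chrX:23784753-23786000) begins inside the long intron and reads through the acceptor of the next coding exon, and 44.3% of its bases lie in coding exons. SAT1-205 (chrX:23785260-23786210) keeps a whole intron of 90 bases, and 80.9% of its bases lie in coding exons. The next lines show these places, with donor GT and acceptor AG in capitals.
SAT1 exon 3 donor read through by SAT1-207: actggactccggaagGTaacccctcgccct
SAT1 acceptor read through by SAT1-206: atgctcttattacAGgacacagcattgttg
Intron retained in SAT1-205: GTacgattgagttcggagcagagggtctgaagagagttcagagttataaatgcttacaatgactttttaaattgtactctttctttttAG

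**Figure D1:**
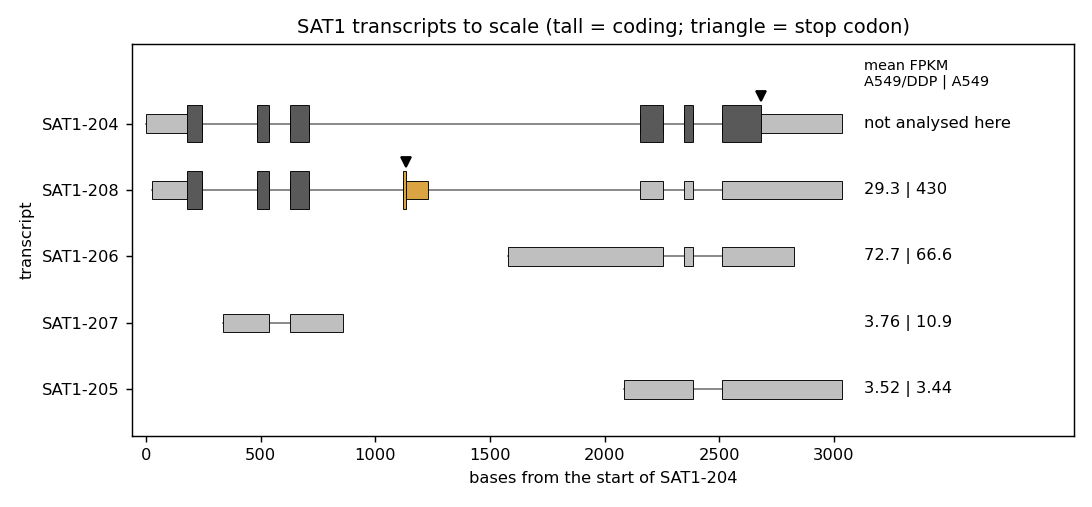
SAT1 transcripts of GENCODE 44 drawn to scale in bases from the start of the coding transcript SAT1-204, with coding parts tall, other exon parts low, stop codons as triangles and exon 4 of SAT1-208 in yellow. The numbers at the right are mean FPKM over 3 libraries, and SAT1-208 had 29.3 in A549/DDP cells against 430 in A549 cells.

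SAT1-208 was far lower in A549/DDP cells. It had 31.4, 23.7 and 32.8 FPKM in the A549/DDP libraries, against 481, 362 and 447 FPKM in the A549 libraries. The groups lay far apart, with the highest A549/DDP library well under the lowest A549 library. The mean was 29.3 ± 4.93 FPKM in A549/DDP cells and 430 ± 61.7 FPKM in A549 cells (SD, n = 3 each), 14.7-fold lower in A549/DDP cells. The difference was -3.83 on the log2(FPKM + 1) scale (standard error 0.23), and -3.95 to -3.69 when any 1 library was left out. By its mean SAT1-208 was number 156 of all rows, which are mostly non-coding, in A549/DDP cells and number 6 in A549 cells. Among the 45 tested rows annotated as subject to nonsense-mediated decay, it had the highest A549 level and the lowest log2 difference.

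The retained-intron row SAT1-206 did not follow. It had 85.0, 56.1 and 77.1 FPKM in A549/DDP libraries and 58.5, 84.2 and 57.2 FPKM in A549 libraries. These ranges overlap almost wholly, and the log2 difference of 0.13 (standard error 0.28) turned to -0.17 under median-ratio scaling. SAT1-207 was at 4.81, 3.34 and 3.12 FPKM in A549/DDP cells and at 4.08, 23.1 and 5.68 FPKM in A549 cells. One A549 library, replicate 2, stands above the rest, and the log2 difference of -0.99 (standard error 0.57) was -0.31 without it. SAT1-205 was at 4.30, 2.87 and 3.38 FPKM in A549/DDP cells and at 1.81, 7.08 and 1.44 FPKM in A549 cells. Its groups overlapped, with a log2 difference of 0.23 (standard error 0.47) that was 0.78 without A549 replicate 2 and -0.09 without A549 replicate 3. The SAT1 row without a matching transcript (chrX:23783337-23786109) stayed between 0.665 and 0.944 FPKM in A549/DDP cells and between 0.432 and 1.10 FPKM in A549 cells.

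**Figure D2:**
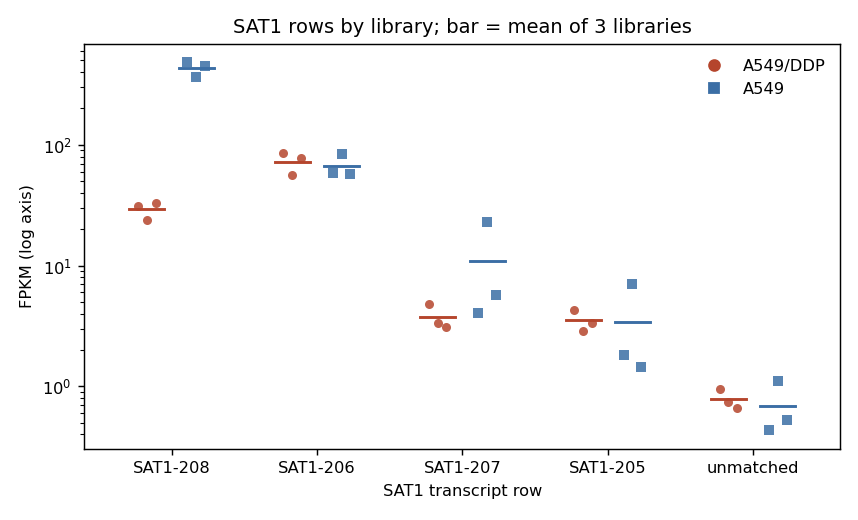
FPKM (log axis) of the 5 SAT1 rows in each library, A549/DDP as circles and A549 as squares, with a bar at the mean of 3 libraries. Only SAT1-208 has groups that do not overlap among these rows, at 23.7 to 32.8 FPKM in A549/DDP cells and 362 to 481 FPKM in A549 cells.

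The make-up of the listed SAT1 RNA differed between the lines. SAT1-208 held 24.8%, 27.3% and 28.0% of the SAT1 sum in A549/DDP libraries and 88.1%, 75.8% and 87.3% in A549 libraries, with means of 26.7% ± 1.68 and 83.8% ± 6.91 (SD, n = 3 each). SAT1-206 held 65.9% ± 1.26 in A549/DDP cells and 13.2% ± 3.89 in A549 cells. The ratio of SAT1-208 to SAT1-206 was 0.370, 0.422 and 0.426 in A549/DDP libraries and 8.23, 4.29 and 7.82 in A549 libraries. A scaling factor per library cannot move this ratio, but the division of shared fragments between the rows can. The 4 other SAT1 rows together came to 95.1, 63.0 and 84.2 FPKM in A549/DDP libraries and 64.8, 115 and 64.8 FPKM in A549 libraries. Their means, 80.8 ± 16.3 and 81.7 ± 29.2 FPKM (SD, n = 3 each), lay within the spread, so the difference of the SAT1 sum rests on the row of SAT1-208. That sum was 126, 86.7 and 117 FPKM in A549/DDP libraries and 546, 477 and 512 FPKM in A549 libraries, 4.65-fold lower in A549/DDP cells, with a log2 difference of -2.22 (standard error 0.22). Most exon bases of SAT1-208 also belong to SAT1-204, so fragments of the coding transcript and of SAT1-208 can fall on the same bases. The coding-exon bases of SAT1-206, 44.3% of its bases, also lie in SAT1-208. The shares of these rows thus depend on how shared fragments were divided. Of the 5 SAT1 rows, 2, with SAT1-208 among them, also overlap another annotated coding locus on the same strand. From an FPKM value alone, use of exon 4 and the level of the whole gene cannot be told apart.

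**Figure D3:**
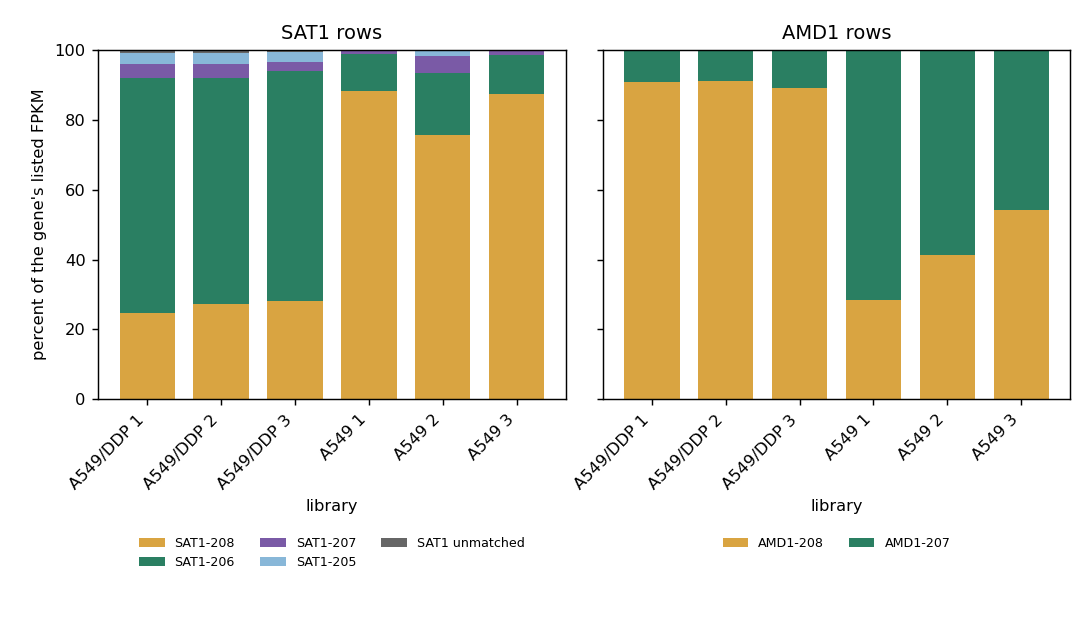
Share of each row in the listed FPKM of its gene, in percent, for SAT1 at the left and AMD1 at the right, with the A549/DDP libraries before the A549 libraries. SAT1-208 holds 24.8% to 28.0% in A549/DDP cells and 75.8% to 88.1% in A549 cells, and AMD1-208 holds 89.0% to 91.1% in A549/DDP cells and 28.4% to 54.3% in A549 cells.

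Rows with a pattern most like that of SAT1-208 were taken from 1355 named rows with a mean of at least 5 FPKM, by the Pearson correlation (r) of their log2(FPKM + 1) with it across the 6 libraries. The 6 libraries form 2 groups, so such an r mostly reflects the difference between the lines, and 41 rows had an r over 0.95. The 5 highest were CARS1-212 (r = 0.998), SARS1-206 (r = 0.996), DDX10-206 (r = 0.992), GNL3-211 (r = 0.990) and NRAV-201 (r = 0.990). CARS1 and SARS1 encode the cytosolic cysteinyl-tRNA and seryl-tRNA synthetases, GNL3 encodes nucleostemin and DDX10 an RNA helicase. CARS1-212 was at 3.52, 3.19 and 3.98 FPKM in A549/DDP libraries and at 11.6, 10.5 and 10.9 FPKM in A549 libraries. DDX10-206 was at 27.0, 19.99 and 20.3 FPKM in A549/DDP libraries and at 148, 127 and 183 FPKM in A549 libraries. An r does not measure the size of a difference. SARS1-206 was at 4.42, 3.95 and 4.74 FPKM in A549/DDP libraries and at 24.6, 24.8 and 22.2 FPKM in A549 libraries. GNL3-211 was at 24.2, 22.7 and 22.4 FPKM against 33.7, 33.6 and 34.2 FPKM. NRAV-201 was at 12.8, 13.9 and 14.6 FPKM against 32.2, 27.3 and 29.4 FPKM. None of the 5 rows reached the A549 level of SAT1-208.

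Of the 42 rows, 30 reached 0.5 FPKM in 3 or more libraries and entered the fit of all 20663 such rows with limma. A row was called at an adjusted p under 0.01 (Benjamini-Hochberg) with an absolute log2 difference over 1. By that rule 0 member rows were called higher, where 0.353% of all tested rows were, and 1 was called lower, SAT1-208, where 0.198% of all tested rows were. The call of SAT1-208 held without A549/DDP replicate 1 and was lost without any other single library, at the log2 differences given above. It was also lost with a pseudocount of 0.01 and with no filter. All 3 A549/DDP libraries lay above all 3 A549 libraries in 4 of the 30 member rows, against 18.9% of all tested rows, and below them in 6, against 8.91%. Nothing is read from these shares, since the members were chosen from this contrast. Over all 42 rows, 20 log2 differences were positive and 22 negative, with a median of -0.01, against a median of 0.04 over the 53355 rows above 0 in any library. The 22 retained-intron rows split into 15 positive and 7 negative, with a median of 0.11, against 13618 and 8505 with a median of 0.06 over all such rows above 0. The 15 rows without a defined coding sequence split into 4 positive and 11 negative, with a median of -0.25, against 9449 and 6454 with a median of 0.04.

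Gene sums were fitted the same way. The sums of 9 of the 10 genes entered the fit, all but that of SMS. Of these, 0 were called higher, against 1.39% of all tested sums, and 1 was called lower, that of SAT1, against 0.963%. This call was lost without A549/DDP replicate 3, at a log2 difference of -2.28. The A549/DDP libraries lay wholly above the A549 libraries in 1 member sum, that of AMD1, against 21.8% of all tested sums, and wholly below in 3, those of SAT1, SAT2 and SMOX, against 10.4%. The median log2 difference of all tested features was 0.14 for rows and 0.17 for sums, and median-ratio scaling moved these to -0.01 and 0.01. Under that scaling 49 rows were called higher and 44 lower, against 73 and 41 as deposited, and 95 sums higher and 119 lower, against 147 and 102. The SAT1-208 difference was -4.13 under it.

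**Figure D4:**
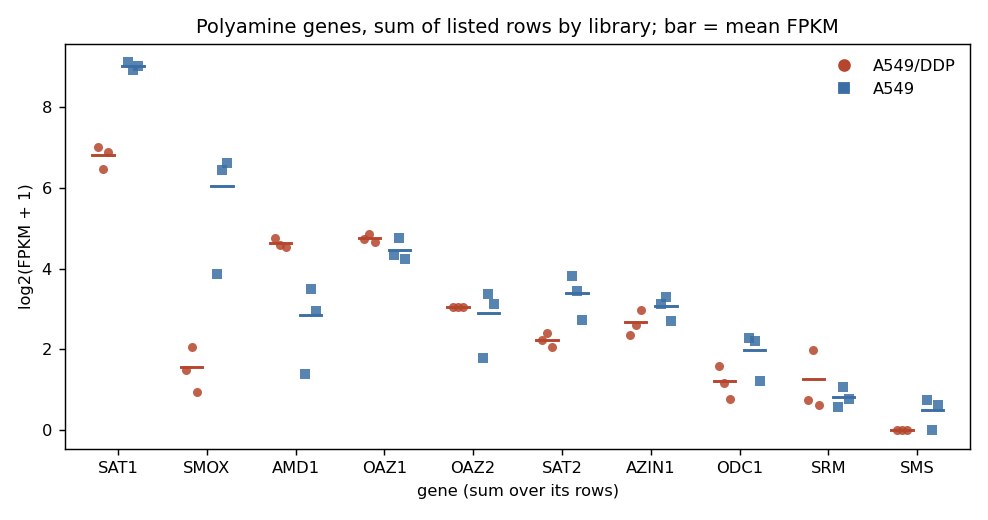
Sum of the listed rows of each of the 10 genes in each library, as log2(FPKM + 1), A549/DDP as circles and A549 as squares, with a bar at the mean FPKM of 3 libraries. The groups are apart for SAT1, SMOX, AMD1 and SAT2 and overlap for the other genes.

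Among the genes that make polyamines, AMD1 stood out. Its row AMD1-208 (gene ENSG00000123505, chr6:110890789-110895704, plus strand) is annotated as a retained intron and keeps an intron of 291 bases between coding exons. Its first exon, of 1415 bases, begins inside an intron of the coding transcript AMD1-201 and reads through the acceptor of the next coding exon. The row has 4329 exon bases, of which 61.6% lie in exons of coding transcripts.

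AMD1-208 had 23.5, 21.0 and 19.8 FPKM in A549/DDP libraries, against 0.462, 4.22 and 3.64 FPKM in A549 libraries. Every A549/DDP library was above every A549 library, and A549 replicate 1 was the lowest. The log2 difference was 2.77 (standard error 0.49), 2.19 without A549 replicate 1 and 3.10 without A549 replicate 2, and the row was not called. AMD1-207 keeps another intron, of 1270 bases, and was at 2.36, 2.06 and 2.44 FPKM in A549/DDP libraries and at 1.17, 6.01 and 3.06 FPKM in A549 libraries. Its groups overlapped, and its log2 difference of -0.27 (standard error 0.42) was 0.15 without A549 replicate 2. AMD1-208 therefore made up 90.3% ± 1.13 of the listed AMD1 FPKM in A549/DDP cells and 41.3% ± 13.0 in A549 cells (SD, n = 3 each). Both AMD1 rows hold nearly all of the last exon of the coding transcript AMD1-201, so fragments of all these transcripts can fall on the same bases. The levels and shares of the rows thus depend on how such fragments were divided. The AMD1 sum was 25.8, 23.1 and 22.3 FPKM in A549/DDP libraries and 1.63, 10.2 and 6.71 FPKM in A549 libraries, with a log2 difference of 2.01 (standard error 0.48).

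The other genes of synthesis were low in these tables. ODC1 had 1 row, without a matching transcript (chr2:10444095-10448309, minus strand), at 1.99, 1.25 and 0.717 FPKM in A549/DDP libraries and at 3.89, 3.61 and 1.34 FPKM in A549 libraries. The groups overlapped, with a log2 difference of -0.73 (standard error 0.37), and the row also covers the small nucleolar RNA gene SNORA80B. SRM-204, a retained-intron row, was at 0.687, 2.94 and 0.551 FPKM in A549/DDP libraries and at 0.492, 1.10 and 0.723 FPKM in A549 libraries. Replicate 2 was the highest of both lines, and the log2 difference of 0.31 (standard error 0.38) was -0.12 without A549/DDP replicate 2. The row SMS-204 had listed values of 0 in every A549/DDP library and in A549 replicate 2, and was at 0.678 and 0.544 FPKM in the other A549 libraries. It was too low to be fitted.

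SMOX, on the side of breakdown, held the largest difference of any member row. SMOX-208 (gene ENSG00000088826, chr20:4148831-4181976, plus strand) belongs to the class without a defined coding sequence and has 5 exons, of which exon 3 lies in no coding transcript of the gene. Of its 900 exon bases, 86.9% lie in exons of coding transcripts.

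SMOX-208 had 0.716, 2.14 and 0.664 FPKM in A549/DDP libraries, against 12.4, 83.1 and 92.5 FPKM in A549 libraries. The lines were apart, but the A549 libraries themselves differed widely, with replicate 1 lowest. The mean was 1.17 ± 0.840 FPKM in A549/DDP cells and 62.7 ± 43.8 FPKM in A549 cells (SD, n = 3 each). The log2 difference of -4.51 (standard error 0.74) was the lowest of the 5221 tested rows of its class, yet the row was not called. Without A549 replicate 1 the difference was -5.42, and without the others it was -4.81 to -4.01. The SMOX sum was 1.82, 3.17 and 0.928 FPKM in A549/DDP libraries and 13.5, 85.9 and 95.8 FPKM in A549 libraries, with a log2 difference of -4.13 (standard error 0.68), and was called only without A549 replicate 1, at -5.02. The other 4 SMOX rows had means under 1 FPKM. Of these SMOX-211, whose bases all lie in coding exons, was at 0.239, 0.438 and 0 FPKM in A549/DDP libraries and at 0.835, 1.13 and 2.11 FPKM in A549 libraries, also without overlap.

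SAT2, a relative of SAT1, was lower as a sum. Its 10 rows together came to 3.67, 4.33 and 3.16 FPKM in A549/DDP libraries and to 13.1, 9.82 and 5.61 FPKM in A549 libraries, which did not overlap. The log2 difference was -1.09 (standard error 0.31), and the sum was not called. SAT2-202 (chr17:7626237-7627869, minus strand) was at 1.25, 0.697 and 0.480 FPKM in A549/DDP libraries and at 3.21, 4.57 and 1.30 FPKM in A549 libraries, just apart. SAT2-204 was at 0.00042, 0.457 and 0.855 FPKM in A549/DDP libraries and at 0.342, 2.89 and 1.87 FPKM in A549 libraries, which overlap. SAT2-212 was at 1.29 FPKM in A549/DDP replicate 1 and 5.56 FPKM in A549 replicate 1 and listed at 0 elsewhere, so this row was present in 1 library of each line. All 10 SAT2 rows overlap SHBG on the opposite strand, and no source says whether strand was used in the counting, so reads of the 2 genes cannot be told apart.

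None of the antizyme rows was called. Translation of OAZ1 and OAZ2 needs the ribosome to shift its frame at an early stop codon, a step that polyamines favour in human cells. The shift site, printed here with the TGA of the first frame in capitals, lies in an exon of 6 of the 7 OAZ1 rows (all but OAZ1-206) and of all 5 OAZ2 rows.
OAZ1 frameshift site (chr19:2271429-2271458, plus strand): ctcggtggtgctccTGAtgcccctcaccca
OAZ2 frameshift site (chr15:64691500-64691529, minus strand): ctctgtggtgctccTGAtgcccctcaccca

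OAZ1-208 was at 14.4, 9.61 and 13.0 FPKM in A549/DDP libraries and at 8.94, 6.00 and 11.3 FPKM in A549 libraries. OAZ1-201 was at 4.35, 13.5 and 4.66 FPKM in A549/DDP libraries and at 6.22, 13.5 and 3.0 FPKM in A549 libraries. Both rows overlapped between the lines, and the log2 difference of OAZ1-201, 0.02 (standard error 0.57), changed sign under 5 of 13 alternatives. OAZ1-206 was at 4.37, 3.63 and 3.64 FPKM in A549/DDP libraries and at 3.24, 2.93 and 2.98 FPKM in A549 libraries. It was apart by little, at a log2 difference of 0.27 (standard error 0.24) that was 0.03 under median-ratio scaling. OAZ1-203, which keeps 4 introns and has a mean under 1 FPKM, was at 0.786, 0.828 and 1.07 FPKM in A549/DDP libraries and at 0.0654, 0.359 and 0.203 FPKM in A549 libraries. The OAZ1 sum was 25.7, 28.1 and 24.3 FPKM in A549/DDP libraries and 19.1, 25.9 and 17.7 FPKM in A549 libraries, with overlap and a log2 difference of 0.32 (standard error 0.23).

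OAZ2 was also overlapping as a sum, at 7.26, 7.24 and 7.21 FPKM in A549/DDP libraries and at 2.44, 9.33 and 7.65 FPKM in A549 libraries. OAZ2-202, which keeps an intron of 424 bases and forms most of that sum in every library but A549 replicate 1, was at 5.38, 4.48 and 4.18 FPKM in A549/DDP libraries and at 0.936, 6.62 and 6.19 FPKM in A549 libraries. A549 replicate 1 was the low library, and the log2 difference of 0.26 (standard error 0.53) was -0.39 without it. OAZ2-209, with a mean under 1 FPKM, was at 0.710, 1.18 and 1.83 FPKM in A549/DDP libraries and at 0.440, 0.213 and 0.123 FPKM in A549 libraries, without overlap. OAZ2-208 ran the other way and was too low to be fitted, at 0, 0.0574 and 0.127 FPKM in A549/DDP libraries and at 0.165, 1.33 and 0.710 FPKM in A549 libraries, also without overlap. Every OAZ1 row lies over another annotated coding locus on the same strand, 3 of them over JSRP1 on the opposite strand, and every OAZ2 row over an antisense lncRNA, so their values may hold reads of those genes.

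No AZIN1 row was called. Its row without a matching transcript and with a mean of at least 1 FPKM was at 2.05, 1.11 and 1.79 FPKM in A549/DDP libraries and at 5.58, 4.35 and 2.89 FPKM in A549 libraries. The groups did not overlap, with a log2 difference of -0.98 (standard error 0.30). AZIN1-208, a retained-intron row, was at 1.39, 2.76 and 2.30 FPKM in A549/DDP libraries and at 0.489, 2.04 and 0.769 FPKM in A549 libraries. These overlapped, with a log2 difference of 0.63 (standard error 0.34). The AZIN1 sum was 4.10, 5.12 and 6.91 FPKM in A549/DDP libraries and 7.72, 8.78 and 5.56 FPKM in A549 libraries, with overlap and a log2 difference of -0.39 (standard error 0.27). Of the AZIN1 rows, at least 3 overlap an antisense lncRNA and 2 another annotated coding locus on the same strand. The 24 member rows with a mean under 1 FPKM had log2 differences from -0.92 to 0.81, on a scale that understates the change of low rows. Of these, 13 entered the fit. All A549/DDP libraries lay above all A549 libraries in 2, against 18.9% of all tested rows, and below them in 2, against 8.91%.

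**Figure D5:**
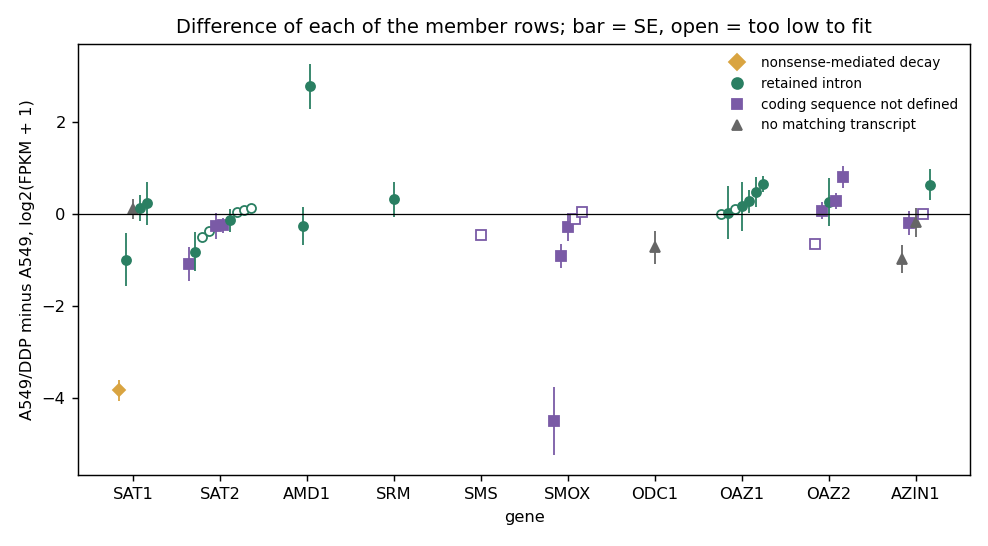
Log2 difference, A549/DDP minus A549 on the log2(FPKM + 1) scale, of each of the 42 rows by gene and annotated class, with a bar of 1 standard error and open symbols for the rows too low to be fitted. SMOX-208 (-4.51), SAT1-208 (-3.83) and AMD1-208 (2.77) lie far from 0, and the other rows lie between -1.08 and 0.81.

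The rest of the pathway was read from 23 further genes chosen by role, of which 20 had rows. They cover methionine and S-adenosylmethionine supply and salvage, arginase, hypusine formation on EIF5A, polyamine oxidase and transporters. Of their 83 rows, 28 entered the fit and 0 were called by limma, with 6 at an unadjusted p under 0.05, against 4483 of all 20663 tested rows. Of their sums, 11 entered the fit and 0 were called, with 4 at an unadjusted p under 0.05, against 2865 of all 10591 tested sums. The shares of all rows and sums called are those given above for the members. MAT2A, which makes the S-adenosylmethionine that AMD1 uses, had a sum of 22.3, 17.9 and 26.7 FPKM in A549/DDP libraries and of 7.99, 11.7 and 7.49 FPKM in A549 libraries. These did not overlap, at a log2 difference of 1.22 (standard error 0.26), which did not pass the threshold (adjusted p = 0.0278 from limma).

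SLC3A2, the heavy chain of amino acid exchangers also tied to polyamine transport, had a sum of 140, 10.6 and 11.8 FPKM in A549/DDP libraries and of 212, 226 and 187 FPKM in A549 libraries. One A549/DDP library stands apart from the other two. The log2 difference of -2.92 (standard error 0.84, adjusted p = 0.0632 from limma) was -4.10 without A549/DDP replicate 1, and the sum was then called. In the A549 libraries and in A549/DDP replicate 1, nearly all of that sum came from 1 row without a matching transcript, listed at 132, 0 and 0 FPKM in A549/DDP libraries and at 199, 214 and 179 FPKM in A549 libraries. AHCY, which clears S-adenosylhomocysteine, had a sum of 97.5, 93.2 and 129 FPKM in A549/DDP libraries and of 147, 140 and 101 FPKM in A549 libraries. These overlapped (log2 difference -0.28, standard error 0.24, adjusted p = 0.505 from limma).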

How the data were processed

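The deposited tables give FPKM per transcript for 6 libraries, 3 of A549/DDP cells and 3 of A549 cells, grouped by their labels. According to the methods, the authors used Trimmomatic for trimming, HISAT2 for alignment to hg38 and the Cufflinks tools for FPKM, while the submitters' notes name StringTie and DESeq2, so which tool made the deposited FPKM is not settled. The kit keeps the strand, and its use in quantification is not stated. Depth is unknown: ratios of low values between libraries held at most 0.874% of pairs in their fullest bin, so whole reads were not recovered, no count test was run and no counting error is given.

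Log2(FPKM + 1) of rows and of sums per gene ID, reaching 0.5 FPKM in 3 or more libraries, was fitted with limma 3.58.1 (R 4.3.3, trend of variance on mean), with Benjamini-Hochberg adjustment over all features. With libraries not stated to be separate cultures, the spread between them may be technical. Exons, introns, stop codons and sequences were read from GENCODE 44 and GRCh38. Member rows with a mean of at least 1 FPKM are given per library, other pathway sums from 10 FPKM or when called. Below that mean, SMS-204 is given as the only row of its gene. OAZ1-203, OAZ2-208, OAZ2-209 and SMOX-211 are given as rows without overlap, so they do not stand for the low rows. The members, lists and rules were chosen with earlier results of these data known. The alternatives were other pseudocounts, filters and scalings, a replicate block and leaving out each library. The code was tested on simulated data. Some other genes of the pathway were not analysed here, and some sequences are not reported here. Python 3.11.15, pandas 2.3.3, numpy 2.4.6 and matplotlib 3.10.9 were used.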

Additional observations from a re-analysis of the deposited data

How the results depend on the processing

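The single member row called, SAT1-208, was also called with a pseudocount of 0.1, a filter at 2 FPKM, quantile normalization and median-ratio scaling. With a pseudocount of 0.01, with no filter and with the replicate block, 0 member rows were called, and leaving out 1 library gave 0 to 1. The single member sum called, that of SAT1, became 0 with no filter, and leaving out 1 library gave 0 to 2. Of the other pathway genes, leaving out 1 library gave 0 to 1 called rows and 0 to 1 called sums, and every other setting gave 0. The same settings lowered the calls over all features: rows called higher and lower were 73 and 41 as reported, 4 and 2 with a pseudocount of 0.01, 3 and 1 with no filter and 0 and 1 with the replicate block, and sums were 147 and 102 as reported, 49 and 41, 31 and 28, and 36 and 35 in that order. Without any 1 library, 0 to 1 rows were called higher and 0 to 5 lower. The cause was not tested. Libraries with the same number did not deviate together (r of 0.015, -0.033 and -0.0099), so the numbers were not taken as pairs. The share of SAT1-208 in the SAT1 sum of A549/DDP cells was 26.7%, 26.9% over matched rows only and 26.1% to 27.7% without any 1 library. The number of matched rows was 38 also when spans could differ by 5 bases. The log2 difference of SAT1-208 lay between -4.13 and -3.69 over 13 alternatives, that of SMOX-208 between -5.49 and -4.01 and that of AMD1-208 between 2.19 and 3.46. The unknown depth limits the rows under 1 FPKM most.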
